A study of Mus musculus with 2 samples.

Results

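The genes described here encode DNA-binding transcription factors of 9 name families: SOX, FOX, KLF, nuclear receptors with an Nr symbol (NR), TCF, ATF, E2F, NFI and MEF2. They were chosen by gene symbol alone among all genes that carried a C-to-U site in nuclei of mouse cortical neurons, and Sox6 and Nr4a1 were set aside. The choice gave 53 of the 6929 genes in the list, with 211 of its 17755 sites. Of the 53 genes, 51 are protein-coding and 2 (Sox1ot and Sox2ot) are long noncoding RNAs whose spans enclose Sox1 and Sox2. A shared name is not always a shared protein family. Atf7ip encodes a chromatin cofactor that binds ATF7, Tcf20 a chromatin-associated coregulator, and Tcf25 a ribosome-associated protein.

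The study has 1 group of 2 libraries. The nuclei came from the cortex of mice with the genotype APOBEC1-YTH, which were 10 weeks old when tamoxifen was first given at 20 mg/kg every 24 hours for 5 days. Dosing ended 7 days before tissue was collected. Nuclei were treated with 50% ethanol as fixative, stained for the neuronal protein NeuN and flow sorted. Both libraries share genotype and treatment, and no library without the editor was analysed here. The labels do not name the promoter or Cre line behind the transgene, or say whether a library came from 1 animal. APOBEC1-YTH joins a cytidine deaminase to the domain that binds N6-methyladenosine (m6A), so that cytidines near a methylated adenosine are converted to uridines. The editing level of a site is the percentage of reads with that conversion. The authors deposited 1 combined list, so no value per library, no spread between libraries and no test between conditions can be given. The sequencing depth behind each level is unknown, and every value below is a description of this list.

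m6A is the most common internal modification of messenger RNA and is concentrated around stop codons and in 3′ untranslated regions. It marks transcripts for faster turnover through YTH reader proteins, and in the nucleus it can bear on splicing and export. Messenger RNAs of transcription factors, which are short-lived, are well-known m6A targets, and in the brain these include factors that control the step from progenitor to neuron. In adult cortex SOX9, SOX2 and the nuclear receptor NR2E1 are linked to astrocytes and progenitors, NFI proteins to glial and neuronal maturation, and MEF2 proteins to synapse number. Of the proteins named TCF, TCF4 and TCF12 are E proteins that pair with other helix-loop-helix factors.

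No genome sequence was at hand, but 4 of the 211 sites fell inside the RefSeq promoter windows of GRCm38.p6 (250 bases before to 50 after a gene start), with at least 10 bases on each side. They are shown because they are the only sites of these genes whose neighbouring bases can be read here. Each run of 21 bases is given 5′ to 3′ on the strand of the RNA, and the capital letter marks the edited cytidine.
Tcf7l2 (chr19:55741835-55741855, plus strand): ccagactactCcgttcctccg
Nr1d1 (chr11:98775281-98775301, minus strand): ctggcgcctgCgcagagccct
Sox21 (chr14:118236219-118236239, minus strand): ccctgctctgCgcgccccgac
Klf7 (chr1:64079282-64079302, minus strand): agaaccccggCggatctcgga
The Tcf7l2 site was edited at 6.67% and lay 48 nt from the 5′ end of its gene span. The Nr1d1 site was edited at 15.4% and lay 86 nt from the 5′ end, in the window of Gm31862. The Sox21 site was edited at 4.88%, 801 nt from the 5′ end, in the window of the neighbouring gene Gm4675. The Klf7 site was edited at 3.24%, 43053 nt inside its gene, in the window of Gm13748. The base before the edited cytidine was G in 3 of the runs and T in Tcf7l2. The core motif of m6A is AAC or GAC with A, G or T before it and A, C or T after it. It was searched on the RNA strand only, and was found in 2 of the 4 runs, as agact in Tcf7l2 and gaacc in Klf7. Of 228 other sites of the list with such a window, 21.1% had the motif within the same 21 bases, and of all cytidines in the promoter windows, both strands read, 25.4% had it.

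Genes of these families carried a site somewhat more often than protein-coding genes in general, and the families differed among themselves. Of the 143 protein-coding genes that the name patterns find in the gene table, 51 had a site (35.7%). The background is 28.3% of all protein-coding genes, drawn whether or not cortex expresses them. All 4 NFI genes, 3 of 4 MEF2 genes, 5 of 10 ATF genes, 8 of 18 SOX genes, 7 of 17 KLF genes, 5 of 13 TCF genes and 8 of 25 NR genes had one. The FOX family with 10 of 44 (22.7%) and the E2F family with 1 of 8 (12.5%) lay below the background. A gene without a site may have been too little expressed for a call, or unmethylated. These cannot be told apart in this list, and neither can fewer nuclei of a type and less RNA per nucleus.

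**Figure D1:**
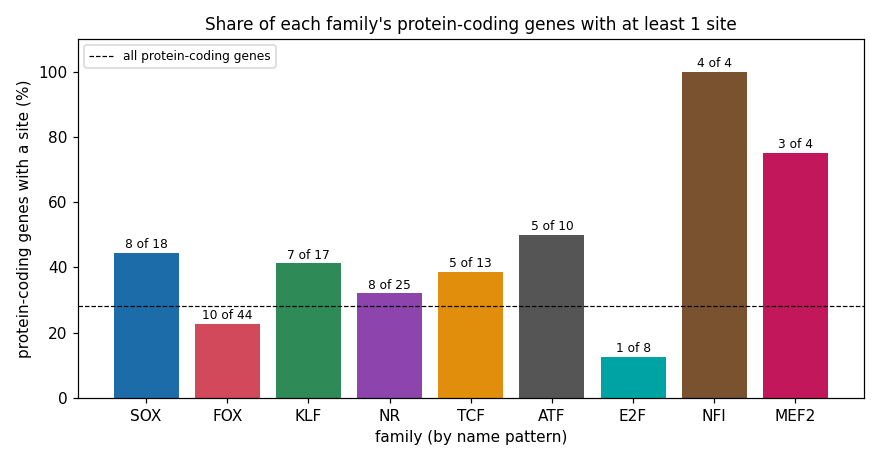
Share of the protein-coding genes of each family that had at least 1 site, in percent, with the counts above the bars; the dashed line is the 28.3% of all protein-coding genes. The NFI bar stands at 4 of 4 genes, and the FOX and E2F bars end below the line.

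When a family gene had a site, it often had several. Only 11 of the 53 genes (20.8%) had a single site, against 49.2% of all genes in the list. A total of 13 genes (24.5%) had 5 or more sites, against 13.5% of all genes. These 13 genes were Tcf4 with 19 sites, Tcf20 with 13, Klf9 with 12, Nfix with 11, Sox2 with 9, Sox9 and Tcf12 with 8 each, Foxo1 and Nfic with 7 each, Sox2ot with 6, and Nfia, Nfib and Nr2f1 with 5 each. Together they held 115 of the 211 sites.

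In the SOX family Sox2 and Sox9 had the most sites, and Sox11, Sox4, Sox5 and the noncoding Sox1ot held the sites at 10% or more. SOX proteins bind DNA through a domain like that of the male-determining factor SRY. Sox2, a factor of stem cells and astroglia (chromosome 3, 34649995 to 34652461, plus strand), had 9 sites. Their levels ran from 1.02% over a median of 1.70% to 6.90%, and the highest site was also the one nearest the 3′ end, 391 nt away. Sox9, the astrocyte regulator (chromosome 11, 112782210 to 112787757, plus strand), had 8 sites, from 1.05% over a median of 2.33% to 6.67%, and again the highest site lay nearest the end, at 675 nt. In Sox2 the other 8 sites lay between 1.02% and 2.65% and were spread up to 2052 nt from the end. In Sox9 the other sites included 4.55% and 4%, at 1806 and 1361 nt. Sox8, a close relative of Sox9 that also acts in the oligodendrocyte lineage, had a single site at 2.44%, and Sox10, the third gene of that subgroup, had none.

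Sox1, which belongs to the same subgroup as Sox2, had 4 sites at 2.7%, 8.70%, 3.17% and 2.74%. Sox3 of that subgroup had none. Sox11 and Sox4, a pair that drives neuronal differentiation in development, gave the highest levels among SOX proteins. Sox11 (chromosome 12, 27334268 to 27342718, minus strand) had 2 sites at 20.0% and 13.3%, and Sox4 had 1 site at 11.1%. The levels of this pair lay above all those of Sox1, Sox2, Sox8 and Sox9. They rest on few sites, and Sox5 and Sox1ot also had a site of at least 10%. Of all sites in the list, 14.9% reached that level. Sox21 had 2 sites at 4.55% and 4.88%. Sox5, a factor of deep-layer projection neurons with a span of 953863 nt, had sites at 10.3%, 3.92% and 1.27%, the last of them 326785 nt from the 3′ end. The SOX genes without a site were Sox3, Sox7, Sox10, Sox12, Sox13, Sox14, Sox15, Sox17, Sox18 and Sox30.

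The noncoding gene Sox2ot (chromosome 3, 34560381 to 34677993, plus strand) had 6 sites, from 1.32% over a median of 2.49% to 9.38%, of which 1 lay beyond its annotated end. Sox1ot had 2 sites at 6.45% and 20.0%. All 9 sites of Sox2 and all 4 of Sox1 lie inside these noncoding genes on the same strand, so reads of either transcript could have contributed to them. The Sox4 site lies inside the predicted gene Gm46405 on the same strand.

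In the FOX family, whose forkhead domain binds DNA, Foxo1 had the most sites. FOXO factors act downstream of insulin signalling and are kept out of the nucleus by AKT kinases. Foxo1 (chromosome 3, 52268337 to 52350109, plus strand) had 7 sites, from 2.13% over a median of 5.26% to 9.09%, and all 7 lay between 3109 and 4643 nt from the 3′ end. Foxo3 had 4 sites at 3.92%, 3.77%, 4.88% and 2.86%, of which 3 were in the last 5 kb. Foxo4 and Foxo6, the other genes of the subgroup, had none. Foxf2, known from pericytes and endothelium of brain vessels, had 3 sites at 7.69%, 8.11% and 5.41%, all within a stretch of 154 nt. Foxk2, a regulator of metabolism, had 3 sites from 2.7% to 5.41%, and Foxn3 had 2 at 2.7% and 1.96%.

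A lone site was listed for 3 further forkhead genes, each outside the last 5 kb. Foxj3 had it at 5.71%, Foxp1, a factor of cortical projection neurons, at 5.56%, and Foxp4 at 12.5%, the highest level of the family. Foxp2 had none. Foxp3, the defining factor of regulatory T cells, had 2 sites at 2.99% and 1.71%. Both lie where the gene Ccdc22 runs on the opposite strand, and no source used here says whether the site calls used the strand of the reads. The FOX genes without a site were Foxa1, Foxa2, Foxa3, Foxb1, Foxb2, Foxc1, Foxc2, Foxd1, Foxd2, Foxd3, Foxd4, Foxe1, Foxe3, Foxf1, Foxh1, Foxi1, Foxi2, Foxi3, Foxj1, Foxj2, Foxk1, Foxl1, Foxl2, Foxm1, Foxn1, Foxn2, Foxn4, Foxo4, Foxo6, Foxp2, Foxq1, Foxr1, Foxr2 and Foxs1.

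KLF genes, which encode zinc-finger factors that bind GC-rich promoters, had the narrowest range of levels among the families with more than 10 sites. All 27 sites lay between 1.65% and 6.90%, and 0 reached 10%, against 14.9% of all sites in the list. The TCF (47 sites), NFI (28), ATF (8) and E2F (2) genes also had 0 sites at that level. Klf9 (chromosome 19, 23141226 to 23168129, plus strand), a target of glucocorticoid and thyroid hormone receptors in neurons, had 12 sites. They ran from 1.79% over a median of 3.34% to 6.90%. Of these, 11 lay in the last 5 kb, and the highest lay apart from them, 26484 nt from the 3′ end. Klf12 had 4 sites at 3.45%, 2.41%, 4% and 3.70%, none of them in the last 5 kb. Klf7, which supports axon growth, had 3 sites at 4.69%, 1.65% and 3.24%. Klf2, the flow-responsive factor of endothelium, had 3 at 6.06%, 4.49% and 3.09%, and its relative Klf4 had 1 at 4%. Klf6 had 2 sites at 6.90% and 2.56%, and Klf13 had 2 at 3.92% each, of which 1 lay in the first 1 kb of the gene. Klf1, Klf3, Klf5, Klf8, Klf10, Klf11, Klf14, Klf15, Klf16 and Klf17 had none.

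The nuclear receptors had the largest number of sites at 10% or more. The read depth of these sites is unknown, and a high level can rest on few reads. Of their 26 sites, 8 (30.8%) reached 10%, against 14.9% of all sites in the list. These made up 8 of the 16 such sites in all 9 families, and 3 of them belonged to Nr2e1. The share was similar in the MEF2 genes, with 2 of 7 sites (28.6%), and the median receptor site was at 4.35%. Nr2e1 (chromosome 10, 42561963 to 42583590, minus strand), also called Tlx and known for neural stem cells and astroglia, had 4 sites at 18.2%, 11.1%, 20.0% and 3.57%, all within 1349 nt of the 3′ end. Its 3 highest sites were above every site of the KLF, TCF, ATF, E2F and NFI genes.

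Nr2f1 and Nr2f2, the COUP-TF receptors that pattern cortical areas and mark interneurons, resembled each other in part. Nr2f1 (chromosome 13, 78188971 to 78198873, minus strand) had a group of 3 sites at 1.27%, 1.30% and 1.93%, a site at 15.0% nearer the 3′ end, and a site at 6.06% beyond the annotated 5′ end, where A830082K12Rik runs on the opposite strand. Nr2f2 had a pair at 2.53% and 2.15%, 46 nt apart, and a site at 14.3% towards the 5′ end. In each gene 1 strong site lay outside a tight group of weak ones, on opposite sides of it. The distance to the group was 228 nt in Nr2f1 and 6150 nt in Nr2f2.

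Nr1d1 and Nr1d2 encode the REV-ERB repressors of the circadian clock. Nr1d1 had 4 sites at 1.01%, 1.23%, 3.82% and 15.4%, the last being the site near the gene start shown above. Its site at 1.01% lies inside Thra, which runs on the opposite strand. Nr1d2 had 4 sites at 5.88%, 1.69%, 2.53% and 1.02%. Nr3c1, the glucocorticoid receptor, had 3 sites. One at 4.88% lay 2114 nt from the 3′ end, and the others, at 11.1% and 9.52%, lay 79222 and 80080 nt from it. Nr3c2, the mineralocorticoid receptor, had 2 sites at 2.94% and 5.26%. Its sites, too, were divided, with the first 336126 nt and the second 2559 nt from the end. Nr1h3, the oxysterol receptor LXR alpha known from macrophages and microglia, had a single site at 11.8%. No site was listed for Nr0b1, Nr0b2, Nr1h2, Nr1h4, Nr1h5, Nr1i2, Nr1i3, Nr2c1, Nr2c2, Nr2c2ap, Nr2e3, Nr2f6, Nr4a2, Nr4a3, Nr5a1, Nr5a2 or Nr6a1.

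**Figure D2:**
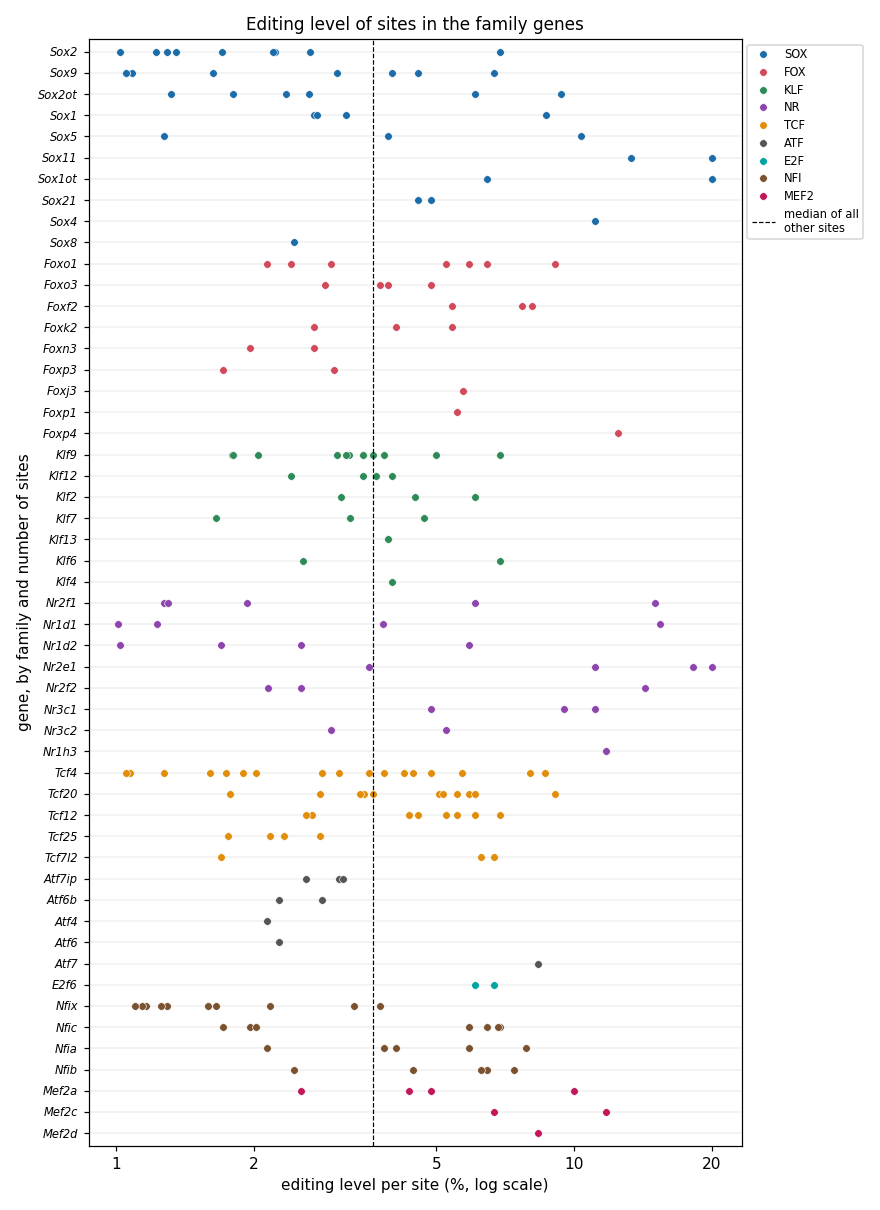
Editing level in percent (log scale) of 207 sites, 1 point per site, with genes in rows by family and number of sites; the dashed line is the median of all other sites, 3.64%. Nr2e1 and Sox11 hold points at or near 20.0%, while all Nfix points but 1 lie below the line.

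The TCF genes carried the most sites per gene. Tcf4 (chromosome 18, 69343429 to 69687967, plus strand), the E protein gene affected in Pitt-Hopkins syndrome, had 19 sites, the most of the 53 genes. Levels ran from 1.05% over a median of 2.82% to 8.62%. Of these sites 14 lay in the last 5 kb, and the others were spread up to 343265 nt from the 3′ end. Tcf12 (chromosome 9, 71844252 to 72111893, minus strand), a second E protein gene, had 8 sites from 2.60% to 6.90%, of which 6 lay in the last 5 kb. Tcf3, the third, had none. Tcf7l2, a WNT effector that binds beta-catenin, had 3 sites at 6.67%, 1.69% and 6.25%. The first and second lay at the 5′ end, where the predicted gene Gm31734 overlaps with a strand that is not given here, and the last lay 1517 nt from the 3′ end. Tcf7 and Tcf7l1, its relatives, had none, and neither had Tcf15, Tcf19, Tcf21, Tcf23 or Tcf24.

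Tcf20 (chromosome 15, 82808447 to 82988103, minus strand) differed from the other genes with many sites. None of its 13 sites lay in the last 5 kb, and all of them lay between 43429 and 48255 nt from the 3′ end, in a stretch of 4826 nt. Levels there ran from 1.77% over a median of 5.08% to 9.09%. Whether this stretch is a single exon cannot be read from the gene table, which holds spans but no exons. Tcf25 had 4 sites at 1.75%, 2.33%, 2.17% and 2.78%, each below the median of the list.

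ATF genes, which encode leucine-zipper factors of stress and cAMP responses, had few and mostly weak sites. Atf4, the effector of the integrated stress response, had 1 site at 2.13%. The endoplasmic reticulum stress sensors Atf6 and Atf6b had 1 site at 2.27% and 2 sites at 2.82% and 2.27%. Atf7 had 1 site at 8.33%, the only ATF site above 3.12%. The cofactor gene Atf7ip had 3 sites at 2.60%, 3.06% and 3.12%, none in the last 5 kb. Atf1, Atf2, Atf3, Atf5 and Atf7ip2 had none. Of the E2F genes, which govern entry into S phase, only E2f6 had sites, at 6.06% and 6.67% and 150 nt apart. E2f1, E2f2, E2f3, E2f4, E2f5, E2f7 and E2f8 had none.

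All 4 NFI genes had 5 or more sites. NFI proteins bind DNA as dimers and promote astrocyte formation and neuronal maturation. Nfix (chromosome 8, 84704712 to 84801238, minus strand) had 11 sites from 1.10% over a median of 1.59% to 3.77%, and its gene mean of 1.82% was the lowest of the 53 genes. Nfic (chromosome 10, 81396191 to 81431919, minus strand) had 7 sites from 1.71% over a median of 5.88% to 6.90%. Nfia (chromosome 4, 97578066 to 98118876, plus strand) had 5 sites at 2.13%, 7.84%, 3.85%, 4.08% and 5.88%. Nfib (chromosome 4, 82290173 to 82506751, minus strand) had 5 at 6.45%, 6.25%, 4.44%, 7.41% and 2.44%. The median of Nfix lay below every site of Nfia and Nfib. The 5 kb limit divided the genes in another way. Of the sites of Nfix 8 of 11 lay in the last 5 kb and of Nfic 5 of 7, but of Nfia and Nfib only 1 of 5 each. This depends on the limit, since all 5 Nfib sites lay between 1889 and 6431 nt from the 3′ end. The farthest sites of Nfix, Nfic and Nfia lay 22898, 24292 and 53546 nt from it.

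MEF2 genes, which encode MADS-box factors of activity-dependent transcription in neurons, had few sites with comparatively high levels. Mef2a had 4 sites at 4.88%, 10.0%, 2.53% and 4.35%, Mef2c 2 at 6.67% and 11.8%, and Mef2d 1 at 8.33%. All 7 lay in the last 5 kb of their genes, although the spans measure from 30151 nt (Mef2d) to 163063 nt (Mef2c). The Mef2d site lies where 1700113A16Rik runs on the opposite strand. Mef2b had no site.

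Sites of the family genes lay closer to 3′ ends than sites of other genes. Of the 209 sites inside the annotated span, 143 (68.4%) lay in the last 5 kb, against a background of 49.7% of all sites. Part of this goes with short genes, since Sox2 or Klf2 are shorter than 5 kb. In genes with a span of at least 20 kb, 90 of 150 family sites (60%) and 41.3% of the sites of other genes lay there. With each of these long genes given equal weight the values were 54.4% and 39.5%. In bins chosen after the positions were seen, the difference lay between 2 and 5 kb from the end, which held 37.3% of the family sites and 17.9% of the other sites in long genes. The last 1 kb held 10.7% and 11.9%. Of the 56 family sites between 2 and 5 kb, 24 belonged to Tcf4 (11), Foxo1 (7) and Klf9 (6), and without these genes the share was 28.6%.

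**Figure D3:**
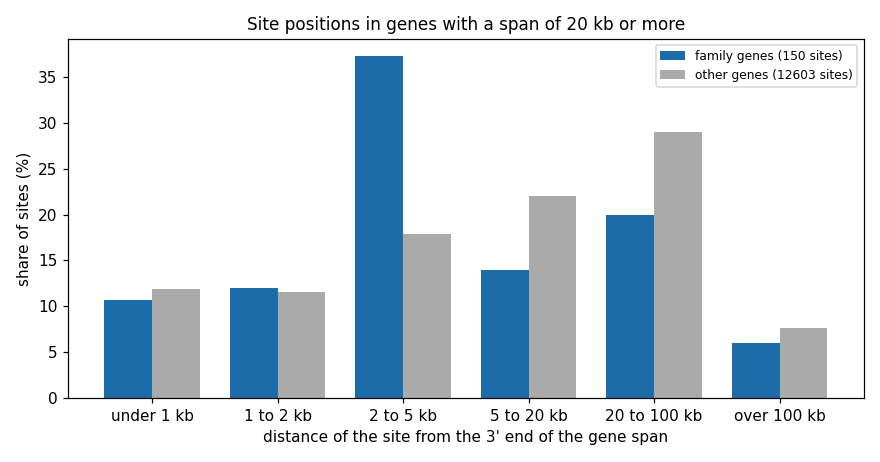
Share of sites in percent by distance from the 3′ end of the gene span, in genes with a span of 20 kb or more, for the 150 family sites (blue) and the 12603 sites of other genes (grey). The bars for 2 to 5 kb stand at 37.3% and 17.9%, and the bars for the last 1 kb at 10.7% and 11.9%.

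In 21 of the 53 genes every site lay in the last 5 kb, and in 8 genes none did. The latter were Tcf20, Klf12, Klf6, Atf6, Atf7ip, Foxj3, Foxp1 and Foxp4. At the 5′ end, 4 of the 150 sites in long family genes (2.67%) lay in the first 1 kb, against 6.05% of all sites in long genes. These were the pair in Tcf7l2 and 1 site each in Klf9 and Klf13.

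**Figure D4:**
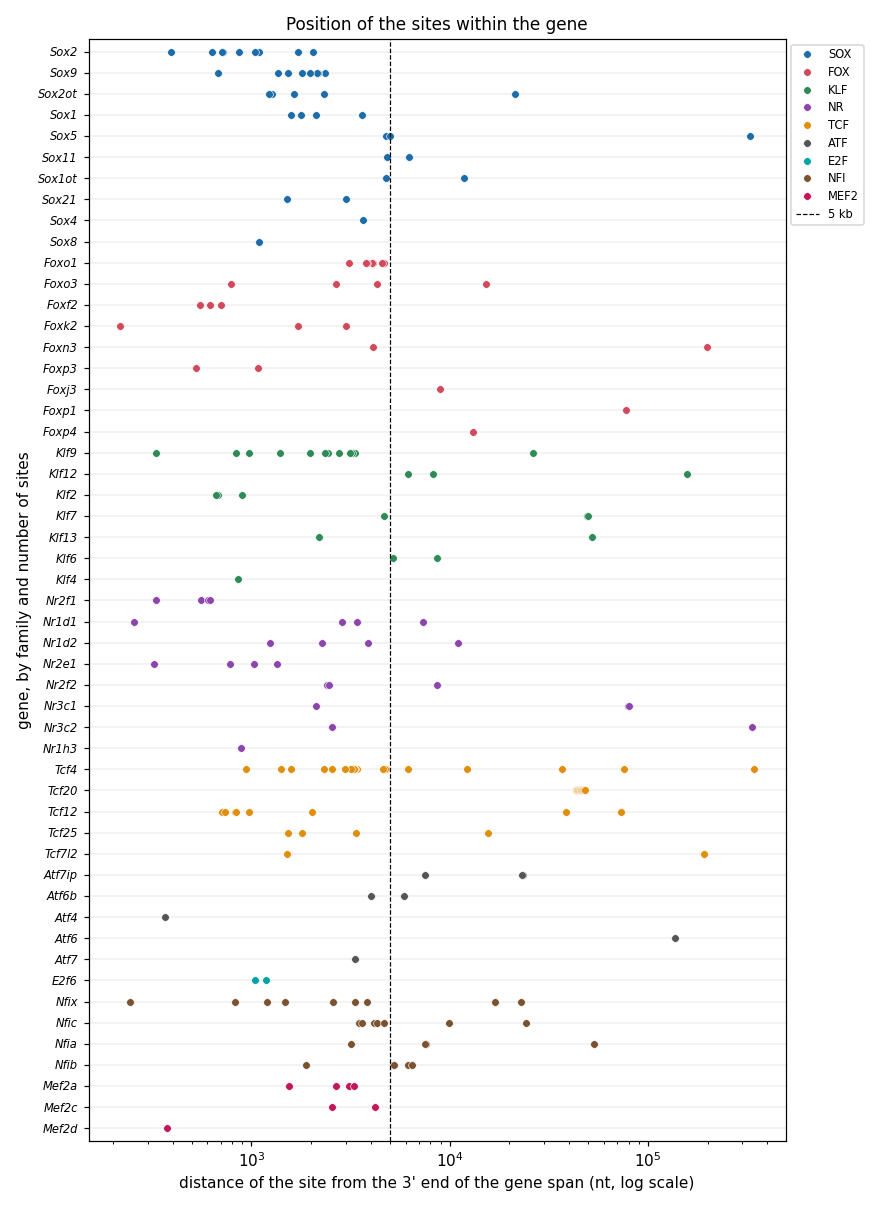
Distance of each site from the 3′ end of its gene span in nt (log scale), 1 point per site, for 205 sites inside a span, with genes in rows; the dashed line marks 5 kb. All Mef2 and Foxo1 points lie left of the line, and the 13 Tcf20 points form a single group between 43429 and 48255 nt.

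Another listed site lay within 100 nt of 52 of the 211 sites (24.6%), against 22.9% of all sites. Within 200 nt the shares were 37.0% for family sites and 30.0% for sites of other genes. The 52 sites formed 21 groups in 16 genes. Among the closest were a pair of adjacent bases in Tcf20, part of a group of 3 at 1.77%, 3.48% and 1.77%, and a pair 4 nt apart in Nfia. Groups of 4 were found in Tcf4 (1.60% to 2.82% over 120 nt) and Tcf12 (4.35% to 6.90% over 125 nt). In 19 of the 21 groups the highest level was under 2 times the lowest. The exceptions were the groups of Nfia, from 3.85% to 7.84%, and of Sox2ot, from 2.35% to 6.06%.

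Editing levels of the family genes were similar to those of other genes in the middle, and a smaller share of their sites reached 10%. The median site was at 3.57% in family genes and 3.64% in other genes, and the median of gene means was 4.60% over 53 genes and 5% over 6876 genes. That order turned among genes with at least 3 sites, with medians of 4.53% and 3.93%, so the family genes were not lower throughout. Levels below 2% were found at 46 sites (21.8%), against 24.6% of all sites. Levels of at least 10% were found at 16 sites (7.58%) in 13 genes, against 14.9% of all sites, and the highest level was 20.0%. Taken per gene, the top was not lower. The median of the highest site per gene was 6.90% in family genes and 6.45% in other genes, with means of 3.98 and 2.55 sites per gene. The 6 genes with a mean of at least 10% were Sox11, Sox1ot, Nr2e1, Foxp4, Nr1h3 and Sox4, with 1 to 4 sites each. None of the 13 genes with 5 or more sites had a mean above 5.40%. Calling a weak site takes many reads, so a gene with much RNA can gain low-level sites, and coverage was not at hand to separate these. In 23 genes sites lay both within the last 5 kb and elsewhere. The mean level was higher in the last 5 kb in 16 of them, higher elsewhere in 6 and equal in 1. The share of 69.6% was close to the 70.9% of other genes with sites in both places. Taken over sites, family levels hardly differed between the last 5 kb and elsewhere, with medians of 3.57% and 3.52%, while the medians of other genes were 4.35% and 2.95%. Without the noncoding and cofactor genes that the names also catch, Tcf20 among them, the family medians were 3.77% and 3.45%.

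Genes that work with these factors or are related to them were taken as 9 lists, chosen with results of the whole list known. Of 94 such genes 53 had a site (56.4%), beside the 28.3% of all protein-coding genes, expressed in cortex or not. The difference is open to that choice of genes and was not tested. Among nuclear receptors without an Nr symbol 9 of 22 had one, led by the orphan receptor genes Rora (9 sites, mean level 5.79%) and Rorb (5, 4.57%) and the shared partner gene Rxra (4, 6.46%). Thrb had 1 site at 20.0% and Rarg 1 at 18.2%. The estrogen and progesterone receptor genes Esr1, Esr2 and Pgr had none. Of the coregulators of receptors 9 of 11 had a site, among them the corepressor gene Ncor1 (12 sites, 1.82%) and the coactivator genes Ncoa1 (11, 3.43%), Ncoa6 (10, 3.13%) and Nrip1 (9, 6.43%).

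Of the WNT partners of TCF7L2, all 10 had a site, among them Tle4 (4 sites, 3.71%), Pygo1 (3, 13.4%) and the beta-catenin gene Ctnnb1 (2, 1.83%). Of the genes that act upstream of FOXO proteins 5 of 7 had one, including Akt2 (5, 3.31%). Of the E2F partners 6 of 9 had one, with 5 sites each in the retinoblastoma family genes Rb1 (2.27%) and Rbl2 (3.10%), in contrast to the single E2F gene with sites. Of the histone deacetylases that repress MEF2 3 of 4 had one (Hdac5 with 4, 2.89%). Of the leucine-zipper and stress genes related to ATF 6 of 13 had one, of the helix-loop-helix partners and antagonists of E proteins 3 of 9 (Id4 with 7, 2.91%), and of the Sp genes, the closest relatives of KLF, 2 of 9 (Sp3 with 4, 2.46%, and Sp2 with 2, 12.6%).

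Markers of cells other than neurons carried sites in the same list, although the nuclei were sorted for NeuN. Among 8 markers of neurons 4 carried sites (11 sites, from 1.20% to 14.3%), and Rbfox3, which encodes NeuN, and Tubb3, Gad1 and Gad2 had none. Of 29 glial and vascular markers 25 had one (274 sites in all), beside 28.3% of all protein-coding genes. The markers of all types were chosen with results of the whole list known, so these counts are open to that choice. By type these were 6 of 8 for astrocytes (142 sites, from 1.04% to 11.3%), 8 of 8 for oligodendrocytes (55), 2 of 2 for oligodendrocyte precursors (6), 3 of 5 for microglia (14) and 6 of 6 for endothelium and pericytes (57). Gfap, Aldoc, P2ry12 and C1qa were the markers without one. Family genes linked to these cells, among them Sox9, Sox8, Sox2, Nr2e1, Klf2, Foxf2 and Nr1h3, stand beside these values. Sox10, of the subgroup of Sox8 and Sox9, had no site. Family genes linked to neurons, among them Mef2c, Sox5 and Foxp1, carried sites as well. The examples with sites, for either kind of cell, were picked from genes that had one. Of the 143 protein-coding family genes 92 had none, Foxp2, Nr4a2, Klf15, Sox17 and Sox18 among them. The part of any cell type in the sites of family genes was not tested.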

How the data were processed

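The 2 libraries of NeuN-sorted nuclei from mouse cortex make up 1 group. Per the series design text the authors called C-to-U sites with Bullseye, and the submitters' processing notes name STAR 2.7.5 and the build mm10. The deposited table gives, per site, an editing fraction for both libraries together, with 0 columns of per-sample values and no coverage, so the depth is unknown. No source used here gives Bullseye's settings, its control or the coverage minimum. The fraction was multiplied to percent. Members were taken by symbol, and all 53 matched a RefSeq gene table (GRCm38.p6, which is mm10). Their strand was read from the sites. Of the 255 listed sites inside RefSeq promoter windows, 255 read C on the listed strand. The gene table has no exons, so UTR, coding and intron classes were not assigned. Positions are 1-based. Sites and genes of 1 list are not replicates, so no test was run. The members and lists were chosen with earlier results of these data known. All members are counted, and 1 of them is not reported here by name or in the plots by gene. Scripts used Python 3.11.15 and pandas 2.3.3 and were tested on simulated sites.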

Additional observations from a re-analysis of the deposited data

How the results depend on the processing

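Chosen after seeing the data were the omission of FOX genes, genes with at least 3 sites, long spans, equal weight per gene, the share between 2 and 5 kb and the omission of 3 genes from it. Without FOX genes 41.4% of 99 family genes had a site. Without the noncoding and cofactor genes that the names also catch, 183 sites in 48 genes remained, and 35.0% of family genes had a site. At a minimum level of 5%, 71 of the 211 sites remained and 25.2% of family genes had a site (17.7% of all protein-coding genes). The median of gene means, 4.60%, became 6.90% with the highest site per gene (6.45% in other genes) and 3.57% over sites. The share near the 3′ end was 34.4% within 2 kb and 19.1% within 1 kb (29.8% and 16.1% for other genes), 60% in long spans and 54.4% with equal weight. Between 2 and 5 kb it was 28.6% without Tcf4, Foxo1 and Klf9. The share with a neighbour was 17.5% within 50 nt, 37.0% within 200 nt and 18.8% at a minimum of 2% (16.3%, 30.0% and 17.5% for other genes). With 5 bases on each side, 0 of the 4 sequences held the m6A motif (0%), against 50% in the longer window. Among genes with at least 3 sites the family median of 4.53% lay above the 3.93% of other genes, the opposite order to that over all genes. No replicate could be left out, and no paired analysis was possible because the table holds no values per library.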

Other observations

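Among the 228 sites of other genes with a readable window, 39 had an A directly before the edited cytidine (17.1%). Of all cytidines in the same promoter windows, both strands read, 18.2% had one. These sites lie around gene starts and are a small part of the list.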
